A study of Mus musculus with 12 samples.

Results

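The genotype effect was taken as the difference between the libraries of Glra2 global knockout mice and those of wild-type (WT) mice, averaged over saline and glycine treatment in an additive model. A gene was kept as separated when all 6 knockout libraries lay on one side of all 6 WT libraries. Of 13928 genes tested, 779 met that rule (5.59%), with all knockout values above all WT values for 403 genes (2.89%) and below them for 376 (2.7%). Levels are in CPM, with the total of each library adjusted by TMM for differences in composition. The separation uses the same values as the fold change and the p-value of the genotype contrast, so the p-values are printed as descriptions of size against spread and not as support for the choice of genes.

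RNA was sequenced from cells of the aorta that the labels call endothelial, taken from mice that had all been infused with angiotensin II (Ang II). The 4 groups of 3 libraries each were WT with intraperitoneal saline, WT with intraperitoneal glycine at 800 mg/kg per day, knockout with saline, and knockout with glycine. In the knockout glycine group, libraries 4 and 6 carry the label 800 mg/kg per day and library 5 the label 80. Every group shares the Ang II infusion, so no library shows the genotype difference without it. The knockout is global, and cells other than the sequenced ones also lack the gene. The labels do not give strain, age, sex or the number of mice per library, and nothing in them tells whether libraries came from separate animals. The p-values therefore measure the spread between these libraries, which may be technical.

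Glra2 encodes the alpha2 subunit of the glycine receptor, a chloride channel opened by glycine that is best known from neurons. Ang II is a hormone that constricts arteries, and its prolonged infusion in mice is a model of hypertension in which leukocytes enter the aortic wall and the matrix made by fibroblasts and smooth muscle is remodelled. Leukocytes of the myeloid line (monocytes, macrophages, neutrophils) carry the phagocyte NADPH oxidase and, in part, the MHC class II molecules that present peptides to T cells.

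The libraries held 14458900 to 24292400 counts. Glra2 had 0 counts in all 12 libraries, so its level could not check the genotype labels, and Glra3 and Glra4 were also at 0. A marker of the labelled cell type was far below abundant transcripts of other cell types. On the FPKM scale, which is per transcript length, the endothelial adhesion molecule Pecam1 had 27.3 to 53.3 in WT and 21.6 to 50.5 in knockout libraries, against 2630 to 5544 and 1941 to 3653 for the fibroblast proteoglycan Dcn and 1715 to 5164 and 5299 to 11247 for the macrophage lysozyme Lyz2. None of the 22 endothelial markers was at 0, and their summed FPKM was 236 to 466 in WT and 202 to 365 in knockout libraries. Smooth muscle markers summed to less, 150 to 264 and 53.7 to 159. Fibroblast markers summed to 6494 to 13692 and 4694 to 8906, and macrophage and monocyte markers to 2810 to 8513 and 9227 to 16054. Such sums depend on the markers listed and do not give shares of cells. Because RNA of other cell types was present, the cells are called aortic cells here. In bulk RNA, fewer cells of a type and less RNA per cell cannot be told apart. Mitochondrially encoded genes took 30.6% to 64.7% of the counts in WT and 26.9% to 50.4% in knockout libraries, and WT glycine 4 stood apart from the other 11 libraries on the second principal component. How far either bears on the genotype differences was not tested. Without WT glycine 4 the number of genes called was 1347, of which 1186 were also called with all 12 libraries. Without mitochondrially encoded genes it was 1372. That fit cannot show what the mitochondrial share does, because TMM already adjusts for composition.

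In the edgeR quasi-likelihood test with Benjamini-Hochberg adjustment, 1372 genes (9.85%) had an adjusted p below 0.05 for genotype, 644 higher (4.62%) and 728 lower (5.23%) in knockout. Genes are said to rise or fall in knockout only below that threshold, and fold changes are given as log2 values with their standard error (SE) over 12 libraries. Of the 779 separated genes 676 were also called, and 696 called genes were not separated. The median log2 fold change was 1.28 over the separated genes that were higher, -1.07 over those that were lower and -0.00 over all genes tested. Changes of at least 2-fold were seen in 493 separated genes and of at least 4-fold in 146, of which 97 were higher and 49 lower. The split of all calls leaned on the scaling. Rises made up 46.9% of the calls after TMM, 67.0% with library totals and 73.8% with FPKM values, and with those scalings the median of all genes was 0.15 and 0.12 on the log2 scale. The separated genes leaned on the scaling too, mostly those lower in knockout. With library totals 335 were higher and 105 lower, and with FPKM values 332 were higher and 95 lower.

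**Figure D1:**
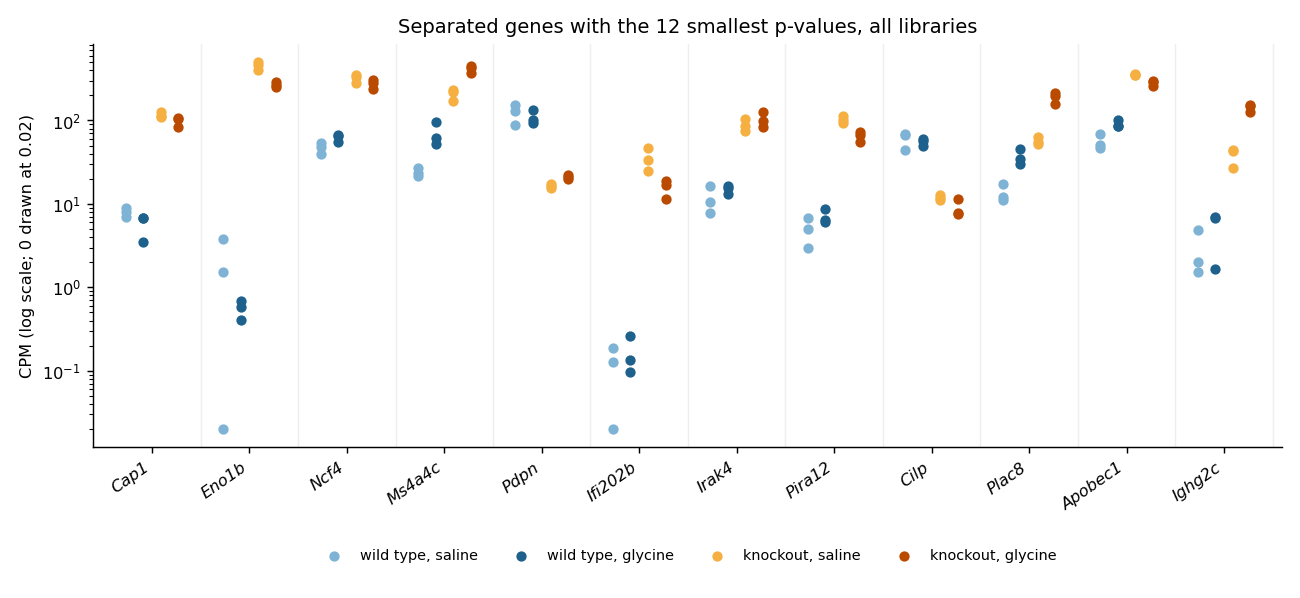
CPM (log axis) of the 12 separated genes with the smallest p-values; each point is a library, coloured by genotype and treatment, and values of 0 are drawn at 0.02. For every gene the 6 knockout points lie together above or below the 6 WT points, and the log2 fold change runs up to 8.33 for Eno1b.

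Genes of antigen presentation were higher in knockout. Of 23 tested genes of MHC class I and class II presentation 14 rose and none fell, 12 of them were separated, and the median log2 fold change of the list was 0.80 against -0.00 over all genes. For this and the later lists, the shares over all genes tested were 4.62% risen, 5.23% fallen and 5.59% separated. The class II genes rose together. The proximal promoters of 3 of them, and of 2 genes described further on, Oas1a and Ctss, are shown because all 5 genes rose and their promoters hold motifs known from this biology. Each sequence is the stretch of 130 bases that ends just before the transcription start, from RefSeq on GRCm38.p6, written 5′ to 3′ on the gene's own strand. In the class II genes capitals mark CTNGNAAC, a form of the X box bound by the RFX complex, and ATTGG or its reverse complement CCAAT, the Y box bound by NF-Y.
H2-Aa, chr17:34287824-34287953, minus strand: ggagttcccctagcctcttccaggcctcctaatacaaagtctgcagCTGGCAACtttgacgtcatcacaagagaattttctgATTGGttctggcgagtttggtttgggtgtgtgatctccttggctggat
H2-Eb1, chr17:34305737-34305866, plus strand: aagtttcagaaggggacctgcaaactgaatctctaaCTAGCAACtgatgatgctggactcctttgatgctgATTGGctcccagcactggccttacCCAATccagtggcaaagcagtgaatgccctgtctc
H2-DMb1, chr17:34153061-34153190, plus strand: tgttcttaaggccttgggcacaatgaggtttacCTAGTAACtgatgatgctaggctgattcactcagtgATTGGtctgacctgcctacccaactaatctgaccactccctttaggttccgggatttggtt
In the next promoters capitals mark GAAA, any 2 bases and GAAA again, the core of the interferon-stimulated response element; in Oas1a a pair of overlapping copies makes up the capitals.
Oas1a, chr5:120907526-120907655, minus strand: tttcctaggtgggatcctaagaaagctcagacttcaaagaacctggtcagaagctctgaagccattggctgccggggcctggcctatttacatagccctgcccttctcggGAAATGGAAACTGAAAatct
Ctss, chr3:95526656-95526785, plus strand: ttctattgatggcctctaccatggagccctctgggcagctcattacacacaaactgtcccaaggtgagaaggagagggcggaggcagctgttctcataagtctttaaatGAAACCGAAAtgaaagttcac

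The gap between CTNGNAAC and ATTGG was 28 bases in H2-Aa and H2-DMb1 and 27 in H2-Eb1. Motifs were searched on both strands in the 250 bases before the start of 32851 RefSeq promoters, and 565 separated genes had a promoter entry. All promoters include those of genes that were not tested here. The shares count promoter entries, and a gene can have several. CTNGNAAC occurred in 10.9% of all promoters, in 10.1% of those of higher separated genes and in 12.6% of those of lower ones. ATTGG occurred in 33.8%, 32.5% and 35.3% of the same promoter sets. The pair in that order, 10 to 30 bases apart, occurred in 0.244% of all promoters, in 3 of 378 promoters of higher separated genes (0.794%) and in 3 of 374 of lower ones (0.802%), and the 3 higher ones are those printed. GAAA, any 2 bases and GAAA occurred in 2.98% of all promoters, in 31 of 378 promoters of higher separated genes (8.20%) and in 9 of 374 of lower ones (2.41%). A match is a run of letters and not a shown binding site, and the motifs were chosen after the genes were known.

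H2-Ab1, the class II beta chain, had 2440.5 to 4562 CPM (median 3974) in the WT libraries and 8216 to 11169 CPM (median 9233) in the knockout libraries (log2 fold change 1.34 ± 0.14, adjusted p = 4.7e-05). H2-Aa, its alpha chain partner, had 611 to 1049 CPM (median 967) in WT and 1849.6 to 2867 CPM (median 2232) in knockout (log2 fold change 1.35 ± 0.16, adjusted p = 0.0001). In both, the lowest knockout library was above the highest WT library. The invariant chain Cd74, which guides class II molecules to the endosome and was the most abundant separated gene, had 7671 to 12974 CPM (median 11010.0) in WT and 20564 to 28348 CPM (median 23976) in knockout (log2 fold change 1.17 ± 0.15, adjusted p = 0.00015). Ctss, the protease that cuts the invariant chain, had 365 to 787 CPM (median 663) and 1761 to 2337 CPM (median 1852) (log2 fold change 1.72 ± 0.19, adjusted p = 5.6e-05). H2-Eb1 rose by 1.36 ± 0.17 (adjusted p = 0.00012), and H2-DMb1 and H2-DMa, the peptide exchange factor, rose by 1.37 ± 0.15 (adjusted p = 6.5e-05) and 1.23 ± 0.17 (adjusted p = 0.00036). The class I genes had smaller fold changes. H2-K1 rose by 0.75 ± 0.13 (adjusted p = 0.0019), H2-D1 by 0.81 ± 0.16 (adjusted p = 0.0038) and the class I light chain B2m by 0.58 ± 0.11 (adjusted p = 0.0039), and the immunoproteasome subunit Psmb8, which cuts peptides for class I, rose by 1.02 ± 0.14 (adjusted p = 0.00039). Under every alternative scaling run (size factors, library totals, FPKM) the median of the presentation list stayed positive, at 0.80 to 0.97.

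Genes of the interferon response were also higher. Of 33 tested 12 rose and none fell, 7 were separated, and the median was 0.74. Oas1a, an enzyme that senses viral RNA, had 25.8 to 58.4 CPM (median 36.3) in WT and 63.7 to 117 CPM (median 83.2) in knockout libraries (log2 fold change 1.19 ± 0.13, adjusted p = 4.7e-05). Irf7, a transcription factor that amplifies interferon production, had 8.5 to 30.7 CPM (median 21.8) and 38.4 to 152 CPM (median 79) (log2 fold change 1.84 ± 0.31, adjusted p = 0.0014). These genes did not overlap between genotypes, whereas Ifi47, an interferon-induced GTPase, did, with 20.7 to 48.1 CPM (median 33.2) in WT and 42.4 to 137 CPM (median 82.6) in knockout (log2 fold change 1.22 ± 0.15, adjusted p = 0.00011). The widest step was that of Oasl1, an interferon-induced relative of the Oas enzymes, from 0 to 3.93 CPM (median 1.87) to 17.1 to 41.9 CPM (median 37.4) (log2 fold change 4.58 ± 0.63, adjusted p = 0.0003). The count differed between treatments. Here and below, saline or glycine libraries only (or alone) means the genotype difference within that treatment. It was taken from the fit of 4 group means to all 12 libraries. With saline libraries only 5 of the 33 genes rose and 2 fell, and with glycine libraries only 22 rose and none fell.

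Myeloid genes were higher in knockout. Of 17 tested macrophage and monocyte markers 12 rose and none fell, with 4 separated and a median of 0.95. Of 10 neutrophil markers 6 rose and none fell, with 5 separated and a median of 1.67. Ly6c2, the surface antigen of inflammatory monocytes, had 1.11 to 10.5 CPM (median 5.13) in WT and 12.8 to 77.5 CPM (median 43.6) in knockout (log2 fold change 2.87 ± 0.30, adjusted p = 4.1e-05). Its close relative Ly6c1, whose sequence is similar enough that reads may be shared, had a log2 fold change of -0.02 ± 0.18 (adjusted p = 0.97). Fcgr1, the high-affinity receptor for immunoglobulin G, had 8.19 to 48.5 CPM (median 20.9) and 51 to 76.7 CPM (median 71.1) (log2 fold change 1.66 ± 0.26, adjusted p = 0.00079). Chil3, a chitinase-like protein secreted by myeloid cells, had 2.51 to 30 CPM (median 15.9) and 96.2 to 442 CPM (median 141) (log2 fold change 3.89 ± 0.65, adjusted p = 0.0013). Fcgr1 and Chil3 did not overlap between genotypes, and in Chil3 the saline libraries differed more than the glycine libraries (log2 fold changes 5.87 and 2.06).

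The neutrophil granule genes Ngp, Mmp8 and Camp were lower in every WT library than in any knockout library. Of the 10 neutrophil markers 5 were separated and 4 were not called. Ngp, a neutrophil granule protein, had 0 to 13.9 CPM (median 6.03) in WT and 39.6 to 67.1 CPM (median 55.6) in knockout (log2 fold change 3.11 ± 0.59, adjusted p = 0.0031). Mmp8, the neutrophil collagenase, had 3.8 to 24.6 CPM (median 10.5) and 35.3 to 86.7 CPM (median 68.3) (log2 fold change 2.38 ± 0.37, adjusted p = 0.00075). Camp, the antimicrobial cathelicidin, had 0 to 1.0 CPM (median 0.271) and 4.32 to 7.86 CPM (median 5.0) (log2 fold change 4.77 ± 0.93, adjusted p = 0.0039). All knockout libraries were above all WT libraries in these genes and in the chemokine receptor Cxcr2 (log2 fold change 1.64 ± 0.30, adjusted p = 0.0026). With glycine libraries alone the calls of Mmp8, Fcgr1, Cxcr2, Cd14, Cd68, Ngp and Camp were lost, at adjusted p = 0.051 to 0.20, and of the 17 macrophage markers 1 was called. In none of these genes did leaving out a single library end the call.

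Several of the smallest p-values belonged to genes of leukocytes outside these lists. Ms4a4c, a membrane protein of the MS4A family, had 21.6 to 96.2 CPM (median 39.4) in WT and 172 to 451 CPM (median 299) in knockout (log2 fold change 2.84 ± 0.18, adjusted p = 2e-07). Plac8, a small protein abundant in myeloid cells, had 11.1 to 45.6 CPM (median 23.8) and 51.6 to 213 CPM (median 111) (log2 fold change 2.22 ± 0.16, adjusted p = 7.3e-07). Apobec1, the deaminase that edits apolipoprotein B mRNA, had 46.9 to 100.1 CPM (median 77.3) and 257 to 364 CPM (median 324) (log2 fold change 2.15 ± 0.19, adjusted p = 7.3e-06). In each of these genes the lowest knockout library was above the highest WT library, though Plac8 and Ms4a4c were higher with glycine in both genotypes. Cyp4f18, a cytochrome P450 that inactivates leukotrienes, rose by 1.84 ± 0.18 (adjusted p = 2.5e-05), and the acute-phase protein Saa3 by 3.93 ± 0.50 (adjusted p = 0.00018). The cytokine Il1b had 33.9 to 91.2 CPM (median 59.2) in WT and 144 to 312 CPM (median 184) in knockout (log2 fold change 1.74 ± 0.22, adjusted p = 0.00015), without overlap. Tnf overlapped, with 1.49 to 19.4 CPM (median 6.21) and 13.5 to 29.7 CPM (median 19) (log2 fold change 1.72 ± 0.49, adjusted p = 0.034), and its call was lost in 8 of the 12 fits that left out a library. Il6 fell, with a log2 fold change of -1.11 ± 0.32 (adjusted p = 0.036), and that call was also lost in 8 of those fits. Irak4, the kinase that relays signals of Toll-like and interleukin-1 receptors, had 7.69 to 16.6 CPM (median 14.4) in WT and 75 to 128 CPM (median 91.8) in knockout, again without overlap (log2 fold change 2.85 ± 0.20, adjusted p = 4.2e-07).

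The subunits of the phagocyte NADPH oxidase, the enzyme that makes superoxide, were higher in knockout. Of 22 tested genes of NADPH oxidase and antioxidant defence 7 rose and 1 fell, 7 of them separated, and the median was 0.18. Ncf4, a cytosolic subunit, had 39.8 to 67.3 CPM (median 54.5) in WT and 238 to 346 CPM (median 292) in knockout libraries (log2 fold change 2.44 ± 0.15, adjusted p = 2e-07). The catalytic subunit Cybb had 128 to 280.3 CPM (median 227) and 403 to 732 CPM (median 563) (log2 fold change 1.37 ± 0.19, adjusted p = 0.0003), and its membrane partner Cyba had 199.7 to 357 CPM (median 289) and 387 to 551 CPM (median 464) (log2 fold change 0.74 ± 0.15, adjusted p = 0.0042). None of these 3 overlapped between genotypes. Ncf1, another cytosolic subunit, rose by 1.46 ± 0.29 (adjusted p = 0.0046). Sod3, the extracellular superoxide dismutase, moved the other way, from 364 to 525 CPM (median 453) in WT to 185 to 341 CPM (median 216) in knockout (log2 fold change -0.93 ± 0.15, adjusted p = 0.0011). With glycine libraries alone the calls of Cyba and Sod3 were lost (adjusted p = 0.23 and 0.073). The macrophage markers move with this group: their summed CPM was 4247 to 10013 in WT and 10459.7 to 21911 in knockout libraries, which did not overlap, and their part in the oxidase difference was not tested.

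**Figure D2:**
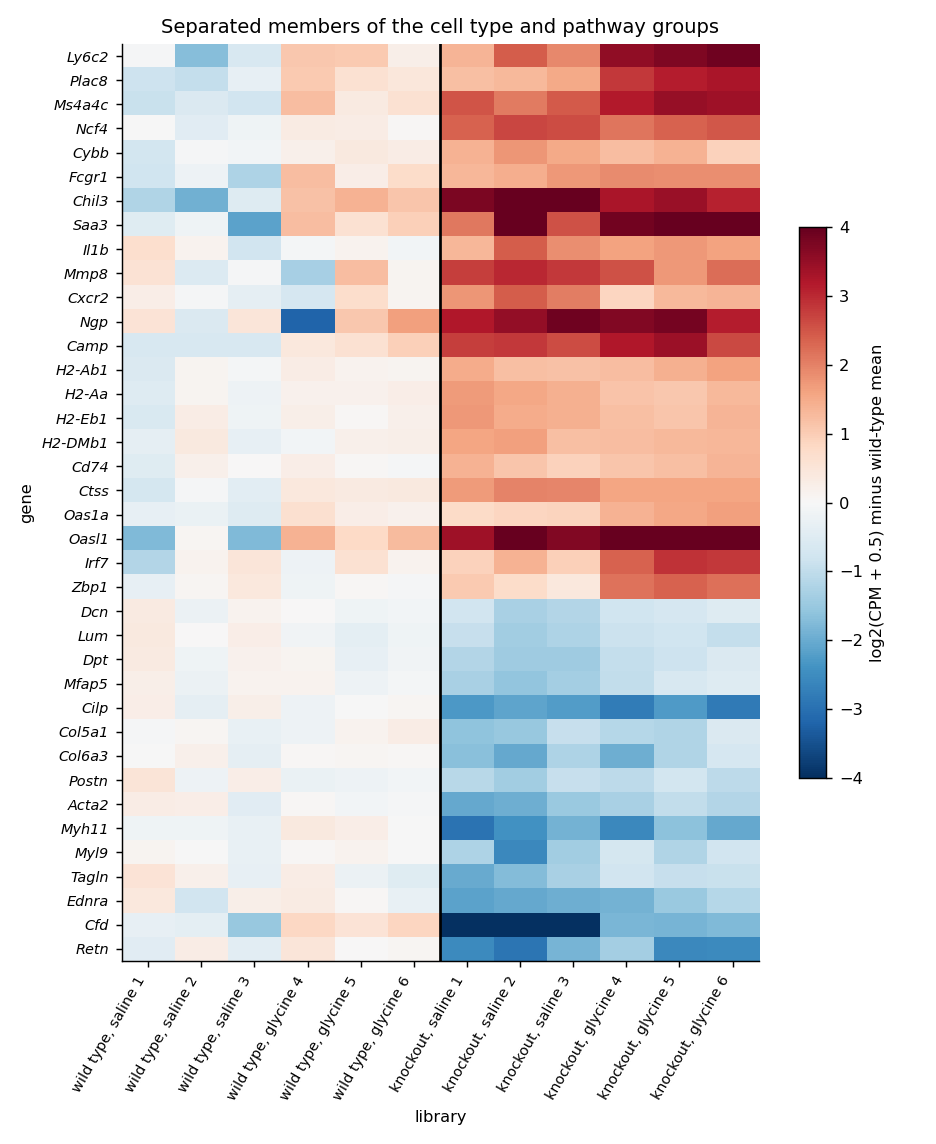
Levels of 38 separated genes of the cell type and pathway groups in the 12 libraries, as log2(CPM + 0.5) minus the mean of the 6 WT libraries, with the colour scale ended at -4 and 4. The upper rows (myeloid, presentation and interferon genes) are red in all 6 knockout libraries and the lower rows (fibroblast, smooth muscle and adipocyte genes) are blue; the black line divides the genotypes.

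Genes of antibodies were higher in knockout, with wide ranges. Of 16 tested B and plasma cell genes 6 rose and none fell, while 4.62% of all genes tested rose, and the median was 0.57. Ighg2c, the constant region of immunoglobulin G2c, was the separated gene of the list, with 1.54 to 6.94 CPM (median 3.43) in WT and 26.6 to 155 CPM (median 86.4) in knockout (log2 fold change 4.34 ± 0.38, adjusted p = 7.3e-06). Within the knockout, its 3 glycine libraries were all higher than its 3 saline libraries. Ighg1, a separated gene outside the list, had 0 to 3.67 CPM (median 0.0317) and 7.02 to 24.9 CPM (median 13.9) (log2 fold change 4.85 ± 0.97, adjusted p = 0.0046). The light chain constant region Igkc and the joining chain Jchain rose by 1.61 ± 0.18 (adjusted p = 6.5e-05) and 2.16 ± 0.27 (adjusted p = 0.00015), but their ranges overlapped. Of 121 tested variable segments 17 were separated, 16 of them higher, while over all genes tested 5.59% were separated and 2.89% were separated and higher. Immunoglobulin genes resemble each other closely, so reads can be split between them and single genes of the family are uncertain. Without mitochondrially encoded, haemoglobin and immunoglobulin genes 1336 genes were called.

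Fibroblast and matrix genes were lower in knockout. Of 14 tested fibroblast markers 13 fell and none rose, with 7 separated and a median log2 fold change of -1.03. Of 30 tested genes of extracellular matrix and fibrosis 20 fell and 1 rose, with a median of -0.90. Dcn, the collagen-binding proteoglycan decorin, had 7177 to 10624 CPM (median 8170.3) in WT and 3385 to 5859 CPM (median 4859.8) in knockout (log2 fold change -0.87 ± 0.16, adjusted p = 0.0022). Lum, the related proteoglycan lumican, had 1695 to 2911 CPM (median 2126) and 848 to 1274 CPM (median 1155) (log2 fold change -1.02 ± 0.16, adjusted p = 0.00071). Mfap5, a microfibril protein, had 1286 to 1753 CPM (median 1531) and 505 to 1059.7 CPM (median 684) (log2 fold change -1.06 ± 0.17, adjusted p = 0.00081). In CPM none of the 3 overlapped between genotypes, and in each the highest knockout library was below the lowest WT library. On the FPKM scale Dcn overlapped, with 2630 to 5544 in WT and 1941 to 3653 in knockout libraries. The step was larger in Cilp, a matrix protein named for cartilage, which went from 44 to 69.3 CPM (median 58.2) in WT to 7.61 to 12.8 CPM (median 11.3) in knockout (log2 fold change -2.48 ± 0.18, adjusted p = 6e-07).

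Among collagens, Col6a3 had 54.5 to 82.1 CPM (median 73.6) in WT and 16.7 to 44.1 CPM (median 25.9) in knockout (log2 fold change -1.42 ± 0.21, adjusted p = 0.00053), and Col5a1 had 98.5 to 149 CPM (median 122) and 39.3 to 80.2 CPM (median 53.1) (log2 fold change -1.15 ± 0.17, adjusted p = 0.00044). The most abundant collagen of the list, Col1a1, fell, with a log2 fold change of -1.34 ± 0.21 (adjusted p = 0.001) but overlapped, with 886 to 2920.3 CPM (median 2281) and 382 to 1676 CPM (median 802). Postn, the matricellular protein periostin, had 189.9 to 327 CPM (median 206) and 87.4 to 137 CPM (median 111) (log2 fold change -1.05 ± 0.16, adjusted p = 0.00063), and the gelatinase Mmp2 fell, with a log2 fold change of -1.16 ± 0.18 (adjusted p = 0.00086). The member that rose was Spp1, osteopontin, a matrix protein that macrophages also make, with 38.8 to 164 CPM (median 96.6) in WT and 372 to 2559 CPM (median 661) in knockout (log2 fold change 3.30 ± 0.57, adjusted p = 0.0015). The summed CPM of the fibroblast markers was 20682 to 31119 in WT and 9593 to 15267 in knockout libraries. Their summed FPKM overlapped, at 6494 to 13692 in WT and 4694 to 8906 in knockout libraries. The part of the fibroblast markers in the matrix difference was not tested. With glycine libraries alone 3 of the 14 fibroblast markers and 5 of the 30 matrix genes were called lower, and the calls of Dcn and Mfap5 were lost (adjusted p = 0.11 and 0.051). The fibroblast median stayed negative under each scaling, at -0.87 to -1.03.

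Pdpn, podoplanin, a surface glycoprotein of lymphatic endothelium and of fibroblasts, had the smallest p-value of all falls, with 88.2 to 154 CPM (median 115) in WT and 15.5 to 22 CPM (median 18.4) in knockout (log2 fold change -2.65 ± 0.17, adjusted p = 3.1e-07). It was the 1 gene of 7 lymphatic markers to fall. The other lymphatic markers tested had no call, and the median of the list was -0.72.

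Smooth muscle and adipocyte genes were lower too. Of 14 tested smooth muscle genes 6 fell and none rose, with 4 separated and a median of -1.27, which was -0.47 with FPKM values, where 1 gene rose. Acta2, smooth muscle actin, had 78.8 to 132 CPM (median 109) in WT and 26 to 53.8 CPM (median 41) in knockout (log2 fold change -1.51 ± 0.19, adjusted p = 0.00013). Myh11, the smooth muscle myosin heavy chain, had 11.8 to 19.1 CPM (median 13.7) and 1.44 to 4.32 CPM (median 2.73) (log2 fold change -2.39 ± 0.31, adjusted p = 0.00017). Ednra, the endothelin receptor that constricts smooth muscle, had 14.8 to 34.1 CPM (median 28.1) and 5.37 to 11.2 CPM (median 6.32) (log2 fold change -1.88 ± 0.26, adjusted p = 0.00031). These 3 did not overlap between genotypes, and neither did the contractile genes Tagln and Myl9, which fell, with log2 fold changes of -1.32 ± 0.26 (adjusted p = 0.0045) and -1.26 ± 0.21 (adjusted p = 0.0014), but were not called with glycine libraries alone (adjusted p = 0.26 and 0.092).

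Of 10 tested adipocyte genes 4 fell and none rose, and the median was -1.58, or -0.98 with FPKM values. Cfd, the complement protease adipsin, had 32.9 to 173 CPM (median 107) in WT and 1.02 to 27.8 CPM (median 14.9) in knockout (log2 fold change -3.58 ± 0.41, adjusted p = 8.2e-05). Its 3 knockout saline libraries were the lowest of the 12. The hormone Retn, resistin, had 3.68 to 7.59 CPM (median 5.46) and 0.267 to 1.76 CPM (median 0.479) (log2 fold change -2.83 ± 0.58, adjusted p = 0.0054), without overlap. Car3, the carbonic anhydrase of fat and muscle, fell, with a log2 fold change of -1.53 ± 0.16 (adjusted p = 4.7e-05) with overlapping ranges. Adipoq, adiponectin, fell, with a log2 fold change of -1.63 ± 0.42 (adjusted p = 0.021), and that call was lost in 4 of the 12 fits that left out a library. The summed CPM of the adipocyte genes was 493 to 751 in WT and 211 to 371 in knockout libraries, without overlap. Their summed FPKM overlapped, at 391 to 672 in WT and 199 to 416 in knockout libraries.

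**Figure D3:**
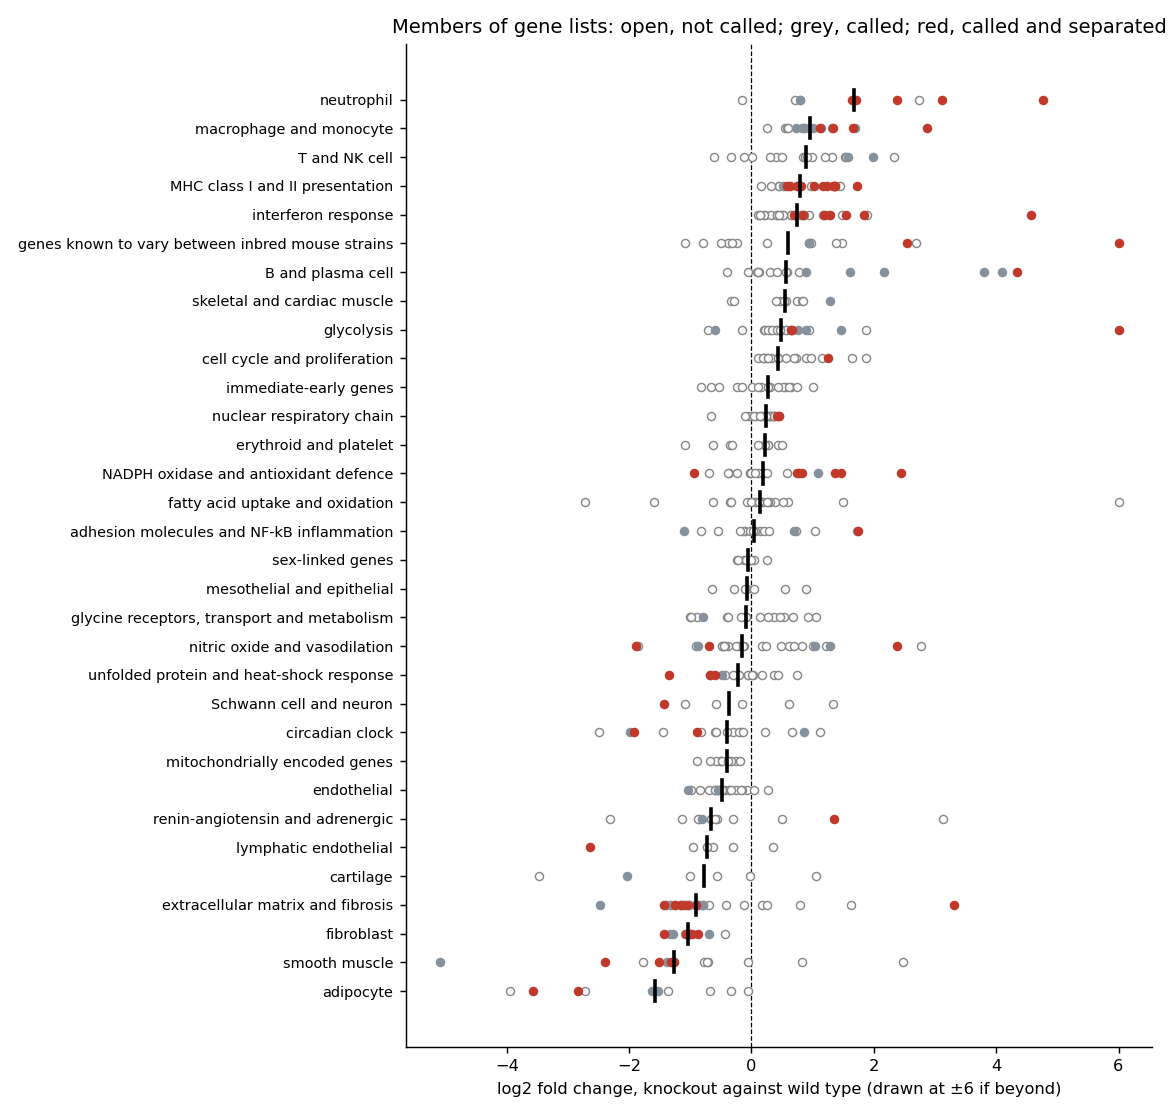
Log2 fold change (knockout against WT) of every tested member of 32 gene lists, ordered by list median (black bar); the thymocyte list is left out, and values beyond 6 are drawn at 6. Open points were not called, grey points had an adjusted p below 0.05 and red points were also separated; neutrophil, macrophage, presentation and interferon medians lie right of 0, and matrix, fibroblast, smooth muscle and adipocyte medians lie left of it.

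Endothelial genes were called at about the rate of all genes tested. Of 22 tested endothelial markers 2 fell, none rose and none was separated, and the median was -0.48. Over all genes tested 9.85% were called and 5.59% separated. With library totals or FPKM none of the 22 was called. With saline libraries only 5 fell (median -0.82), and with glycine libraries only none was called (median -0.12). Tek, the angiopoietin receptor, and Ptprb, a phosphatase that acts on it, fell, with log2 fold changes of -1.03 ± 0.25 (adjusted p = 0.016) and -0.55 ± 0.16 (adjusted p = 0.035); the call of Ptprb was lost in 8 of the 12 fits that left out a library. Pecam1 had 104 to 161 CPM (median 139) in WT and 82 to 141 CPM (median 94.8) in knockout (log2 fold change -0.38 ± 0.16, adjusted p = 0.18). Cdh5, the endothelial cadherin, had 13.8 to 40.6 CPM (median 19.5) and 6.13 to 19.6 CPM (median 8.87) (log2 fold change -0.98 ± 0.37, adjusted p = 0.11). Nos3, the endothelial nitric oxide synthase, had 1.22 to 12.4 CPM (median 6.86) and 1.56 to 9.1 CPM (median 6.15), so the ranges overlapped almost wholly (log2 fold change -0.16 ± 0.50, adjusted p = 0.9).

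Of 28 tested genes of nitric oxide and vasodilation 3 rose and 3 fell, and the median was -0.15, which turned to 0.04 with FPKM values. Arg2, the arginase that competes with nitric oxide synthase for arginine, had 0 to 5.85 CPM (median 5.51) in WT and 11 to 29.5 CPM (median 20.8) in knockout (log2 fold change 2.38 ± 0.63, adjusted p = 0.025). Ddah2, an enzyme of the family that degrades inhibitors of nitric oxide synthase, had 30.3 to 41.4 CPM (median 32) and 15.8 to 28.2 CPM (median 19.7) (log2 fold change -0.69 ± 0.18, adjusted p = 0.025). Both were separated, as was Ednra. Gch1, which makes the synthase's cofactor, rose by 1.29 ± 0.33 (adjusted p = 0.022), and Ptgs2, a prostaglandin synthase, by 1.03 ± 0.27 (adjusted p = 0.022); either call was lost in 3 of the 12 fits that left out a library. Of 19 tested genes of glycine receptors, transport and metabolism, whose median was -0.10 and 0.08 with library totals, the 1 called was Gclc, the catalytic subunit of the enzyme that starts glutathione synthesis, which fell (log2 fold change -0.80 ± 0.19, adjusted p = 0.016) but was not called with FPKM values or without a treatment term (adjusted p = 0.095 to 0.11). Glrb, the beta subunit of the glycine receptor, had 314 counts over all 12 libraries with 0 in 4 of them, and Glra1 had 7. Of 13 renin-angiotensin and adrenergic genes Rgs2, a brake on Gq-coupled receptors, was separated and rose by 1.35 ± 0.27 (adjusted p = 0.0046), and Rgs5, a pericyte gene of the same family, fell (log2 fold change -0.81 ± 0.22, adjusted p = 0.033), a call lost in 7 of the 12 fits that left out a library.

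A small group of separated genes was near 0 or low in 1 genotype and far higher in the other. Cap1, a regulator of actin turnover, had the smallest p-value of all genes, with 3.46 to 8.86 CPM (median 6.87) in WT and 84.1 to 127 CPM (median 109) in knockout libraries (log2 fold change 4.0 ± 0.18, adjusted p = 8.7e-09). Eno1b, a copy of the enolase gene Eno1, had 0 to 3.75 CPM (median 0.632) and 255 to 498 CPM (median 343) (log2 fold change 8.33 ± 0.47, adjusted p = 9.6e-08). Ifi202b, an interferon-inducible DNA-binding protein, had 0 to 0.264 CPM (median 0.131) and 11.4 to 46.8 CPM (median 22) (log2 fold change 7.36 ± 0.49, adjusted p = 3.1e-07). In Eno1b and Ifi202b the WT libraries held 115 and 13 counts in all.

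Pairs of near-identical genes can share reads, and their values are uncertain where the counting could move reads between copies. Eno1 fell while Eno1b rose, from 263 to 346 CPM (median 302) in WT to 148 to 276 CPM (median 199) in knockout (log2 fold change -0.60 ± 0.16, adjusted p = 0.026), and the sum of both copies was 263 to 347 CPM in WT and 403 to 775 CPM in knockout. The call of Eno1 was lost with library totals, FPKM values or saline libraries only (adjusted p = 0.19 to 0.59), and in 6 of the 12 fits that left out a library. For Ahcyl, whose symbol points to the Ahcy gene of methionine metabolism, the rise (log2 fold change 4.34 ± 1.04, adjusted p = 0.014) stood beside 0 to 7.53 CPM (median 4.96) of Ahcy in WT and 0 to 1.52 CPM (median 0.47) in knockout, and the summed ranges overlapped. Kpna2rt, whose symbol points to Kpna2, rose (log2 fold change 4.45 ± 0.94, adjusted p = 0.0066), with Kpna2 itself at 0.04 ± 0.17 (adjusted p = 0.94). The neighbours of Ifi202b in the same gene family had smaller fold changes. Mndal rose by 0.88 ± 0.15 (adjusted p = 0.0014) and Ifi204 by 0.89 ± 0.17 (adjusted p = 0.0034), and Ifi203 had 0.42 ± 0.18 (adjusted p = 0.17).

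Ifi202b, and Wdfy1, an endosomal lipid-binding protein, stand on a list of genes known to differ between inbred mouse strains. Wdfy1 had 3.42 to 12.6 CPM (median 9.13) in WT and 36.4 to 60 CPM (median 47.1) in knockout (log2 fold change 2.54 ± 0.27, adjusted p = 4.7e-05). Of 16 tested genes of that list 3 rose and none fell, while 9.85% of all genes tested were called. By separation 2 were higher in knockout and 1, without a call, was lower. The other rise was that of Alad (log2 fold change 0.94 ± 0.28, adjusted p = 0.048), a call lost in 8 of the 12 fits that left out a library. The labels give no strain for either genotype, so a strain difference and the knockout cannot be told apart in these values. On the low side, Zfp984, a zinc-finger protein, had 24.3 to 47.3 CPM (median 32.2) in WT and 0.471 to 4.02 CPM (median 1.94) in knockout (log2 fold change -4.11 ± 0.44, adjusted p = 4.7e-05), and Zfp982, another zinc-finger protein, had 2.03 to 7.88 CPM (median 5.43) and 0 to 1.11 CPM (median 0.0574) (log2 fold change -4.35 ± 1.02, adjusted p = 0.012). C5ar2, the second receptor for the complement fragment C5a, had 12.1 to 48.1 CPM (median 19.1) and 0 to 1.59 CPM (median 0.273) (log2 fold change -5.25 ± 0.82, adjusted p = 0.00085). In all 3 the highest knockout library was below the lowest WT library. The other receptor, C5ar1, had a log2 fold change of 0.58 ± 0.26 (adjusted p = 0.21).

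Other large falls were found outside the lists. Prune2 had 111 to 287 CPM (median 153) in WT and 10.4 to 33.8 CPM (median 22.3) in knockout (log2 fold change -2.88 ± 0.28, adjusted p = 2.7e-05). Ppp1r16b, a regulatory subunit of protein phosphatase 1, had 26.6 to 103 CPM (median 54.8) and 3.06 to 13 CPM (median 6.59) (log2 fold change -2.97 ± 0.38, adjusted p = 0.00017). Itga8, an integrin of smooth muscle and mesangial cells, had 16.2 to 52.3 CPM (median 26.6) and 0.951 to 11.6 CPM (median 3.98) (log2 fold change -2.73 ± 0.50, adjusted p = 0.0026). In each of the 3 the highest knockout library was below the lowest WT library. Ntrk3, the neurotrophin-3 receptor, the GTPase Rab6b, Rabl2, Arhgap20 and the glycogen-binding protein Stbd1 also fell, with log2 fold changes of -2.94 ± 0.64 (adjusted p = 0.008), -3.99 ± 0.82 (adjusted p = 0.0055), -2.89 ± 0.41 (adjusted p = 0.00041), -3.35 ± 0.67 (adjusted p = 0.0044) and -4.18 ± 1.01 (adjusted p = 0.015). Nxpe4 fell, with a log2 fold change of -3.02 ± 0.82 (adjusted p = 0.03), a call lost in 6 of the 12 fits that left out a library. Among the rises were members of the Ly6 family, Ly6k at 3.46 ± 0.39 (adjusted p = 6.5e-05) and Ly6i at 3.51 ± 0.81 (adjusted p = 0.011), and the receptor Pira12 at 3.77 ± 0.26 (adjusted p = 4.5e-07).

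In 10 separated genes all libraries of 1 genotype had 0 counts. Among the least abundant separated genes were Ighv1-22 and Gm2974, at 0 counts in every WT library. Against a floor of 3 counts over the WT group they were at least 26.2-fold and 23.4-fold higher in knockout, and their calls were lost when single libraries were left out (3 and 7 of 12 fits). Per library, 3 counts equal 0.123 to 0.207 CPM. Of the separated genes 87 (11.2%) averaged below 5 CPM against 33.0% of all genes tested. Their median level was 38.9 CPM against 10.8 CPM, and 185 of them averaged at least 100 CPM. The rule itself favours abundant genes, because low counts vary more and libraries tied at 0 cannot be separated. By type, 756 of the 779 were protein coding.

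Treatment was not used in choosing the genes. In the additive fit 116 genes (0.833%) were called for glycine against saline, 10 of them separated by genotype (1.28% of the 779), and 90 genes (0.646%) had all glycine libraries on one side of all saline libraries, a set that cannot share a gene with those separated by genotype. The genotype difference had the same direction under both treatments in all 779 genes, which the rule fixes too. Its size was not fixed by the rule. The median absolute log2 fold change was 1.44 under saline and 0.90 under glycine, and the difference was larger under saline in 597 genes (76.6%), against 59.1% of all genes tested. Within saline 1573 genes (11.3%) were called for genotype and within glycine 357 (2.56%). Of the separated genes 561 were called within saline, 208 within glycine and 187 within both. Of the 125 genes named by rule 52 lost their call with glycine libraries alone, among them Zfp982, Itga8, Ntrk3, Rab6b, Arhgap20, Stbd1, Ahcyl, Kpna2rt, Ighg1, Ly6i, Retn and Rgs2, at adjusted p = 0.053 to 0.28.

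The difference of these differences was tested as the interaction of genotype and treatment, which was called for 156 genes (1.12%) and for 39 of the separated genes (5.01%). In 37 of the 39 the genotype difference was larger under saline. Chil3 was the widest, with log2 fold changes of 5.87 under saline and 2.06 under glycine (interaction -3.81 ± 0.50, adjusted p = 0.002). Spp1 had 4.99 and 1.63 (interaction -3.37 ± 0.44, adjusted p = 0.002). The macrophage lysosomal protein Cd68 had 1.79 and 0.46 (interaction -1.33 ± 0.23, adjusted p = 0.013), and Ctss had 2.26 and 1.19 (interaction -1.07 ± 0.22, adjusted p = 0.03). The 2 genes with a larger difference under glycine were Dnase1l3, a secreted DNase, and Zbp1, an interferon-induced nucleic acid sensor, which had 0.70 under saline and 2.37 under glycine (interaction 1.67 ± 0.38, adjusted p = 0.047). The interaction count moved with single libraries, to 338 without WT glycine 4 and to 60 to 80 without WT glycine 5 or 6, knockout saline 2 or 3, or knockout glycine 4, 5 or 6.

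By list, the interaction was called for 9 of 17 macrophage and monocyte markers, all with a lower log2 fold change under glycine than under saline. It was called for 9 of 33 interferon genes, all with a higher one under glycine. Among these interferon genes Iigp1 changed sign, from lower in knockout under saline to higher under glycine. The median log2 fold change of the macrophage markers was 1.73 under saline and 0.23 under glycine. For the interferon genes it was 0.18 and 1.35. Among presentation genes 1 of 23 was called, Ctss, and the medians were 0.73 and 0.91. Among matrix genes 1 of 30 was called, Spp1, and the medians were -1.23 and -0.80. Among fibroblast markers 1 of 14 was called, Ccdc80, with -2.18 under saline and -0.68 under glycine. Calls were also made for Arg1 and Ednrb of the nitric oxide list, Gpx1 and Hmox1 of the oxidase list and Igha of the B and plasma cell list. Ccl21a, Trbc2, Ier3 and Pf4 were called in further lists. Neutrophil, smooth muscle, adipocyte and endothelial genes had no interaction call.

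**Figure D4:**
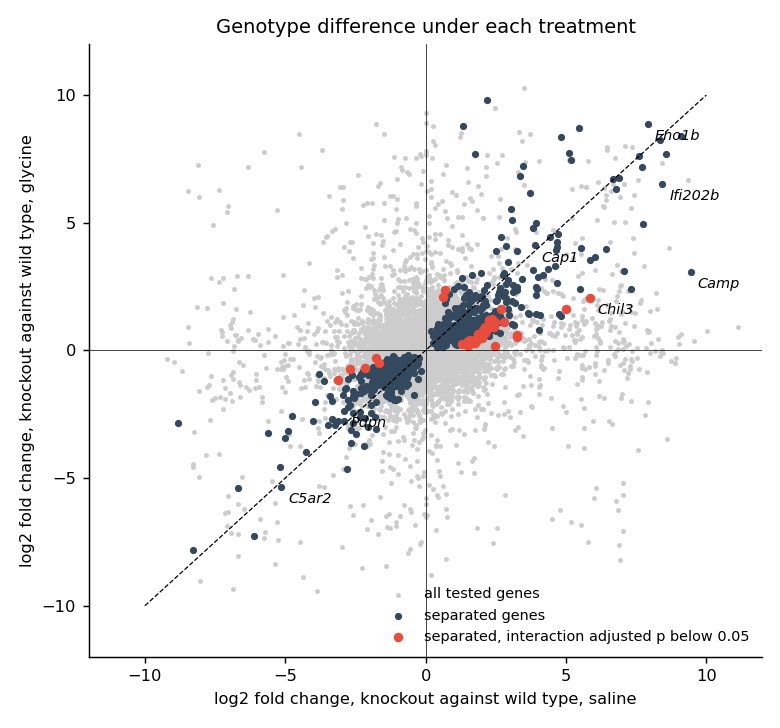
Log2 fold change of knockout against WT under saline (horizontal) and under glycine (vertical) for all tested genes (grey), separated genes (dark) and separated genes with an interaction adjusted p below 0.05 (red). The dashed line marks equal differences; most red points lie nearer to the horizontal axis than the line, with larger values under saline.

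The separated genes were spread over the chromosomes, read from the GENCODE vM21 annotation of GRCm38. Over the autosomes and the X chromosome, where Glra2 lies, their share of the tested genes ran from 3.92% on X to 8.30% on chromosome 9; none of 13 tested genes of the mitochondrial genome and none of 5 on the Y chromosome was separated. Of the 20 annotated genes nearest to Glra2 16 were tested, 4 were called and none was separated. Over all genes tested 9.85% were called and 5.59% separated, so with 16 genes the lack of a separated one says little. Vegfd, a lymphatic growth factor, and Bmx, an endothelial kinase, fell, with log2 fold changes of -1.34 ± 0.21 (adjusted p = 0.00096) and -0.84 ± 0.25 (adjusted p = 0.049). Tlr7 and Tlr8, the endosomal receptors for single-stranded RNA, rose by 1.22 ± 0.31 (adjusted p = 0.019) and 1.10 ± 0.32 (adjusted p = 0.039).

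Most separated genes, 641, had no separated neighbour in the order of tested genes, while 46 runs held 2, 11 held 3 and 3 held 4. Several longer runs were clusters of related genes, whose reads may be shared and whose single values are uncertain. The activating receptors Sirpd, Sirpb1a, Sirpb1b and Sirpb1c rose by 3.01, 2.05, 1.79 and 3.15. Another run joined Pira2, Pira12, Lilra6 and the collagen receptor Lair1, which rose by 1.52, 3.77, 2.53 and 1.57. The immunoglobulin receptors Fcgr2b, Fcgr4 and Fcgr3 rose by 1.09, 2.02 and 0.96, and Slfn2, Slfn1 and Slfn4 of the schlafen family by 1.23, 2.21 and 2.91. The class II genes H2-Ab1, H2-Aa and H2-Eb1 also stood in such a run, with 1.34 to 1.36.

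**Figure D5:**
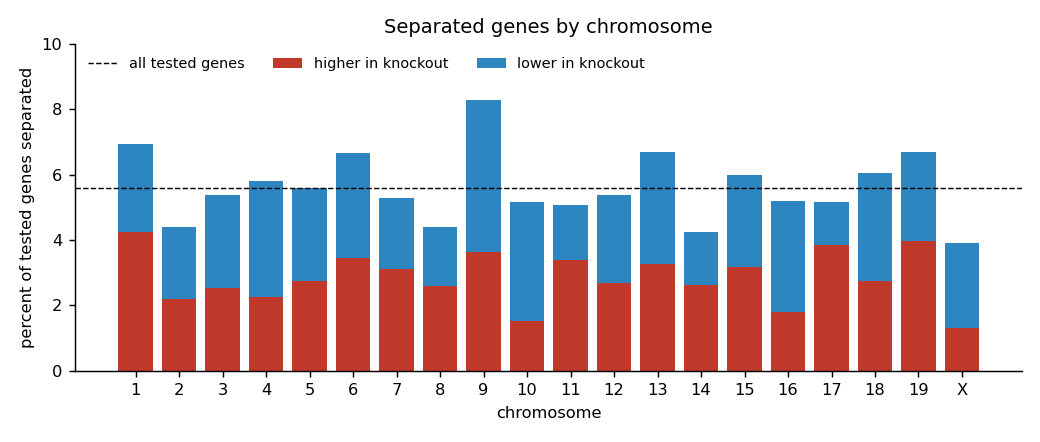
Percent of tested genes that were separated on each autosome and the X chromosome, higher (red) and lower (blue) in knockout, with the share over all tested genes (5.59%) as the dashed line. The shares drawn run from 3.92% (X) to 8.30% (chromosome 9).

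At the edge of the rule the gap between genotypes was small. Map3k12, just inside, had 5.12 to 15.0 CPM in WT and 1.32 to 5.12 CPM in knockout, and Osm had 3.39 to 16.6 and 16.6 to 59.4 CPM. Cald1, just outside, had 104 to 172 CPM in WT and 50.6 to 104 CPM in knockout, and Rinl had 7.12 to 14.6 and 14.6 to 36.1 CPM.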

How the data were processed

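RNA-seq values for 12 mouse libraries were analysed. The authors deposited estimated counts and FPKM per gene in a table of 22013 entries. The submitters' processing notes name RSEM, Bowtie2 2.2.8, StringTie 1.3.1 and HISAT2 2.1.0, with no role for each; the genome build is not given in the sources used here. Of the deposited count values 10.4% were not whole, so they were rounded. Library depth was 14458900 to 24292400 counts, which limits precision for low genes, and intervals and floors cover counting error only.

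Groups followed the labels. Genes were filtered with filterByExpr on the 4 groups, scaled by TMM and tested in R 4.3.3 with edgeR 4.0.16 (robust quasi-likelihood, treatment + genotype, all 12 libraries, Benjamini-Hochberg over 13928 genes, threshold 0.05). The interaction and the differences within a treatment, called saline or glycine libraries only, came from a fit of 4 group means to all 12 libraries. The code was tested on simulated data. Separation required strict inequality of TMM CPM. The deposited FPKM values were used for levels between genes and, as log2(FPKM + 1) with limma-trend (limma 3.58.1), as an alternative. Other alternatives were size factors, library totals, DESeq2 1.42.0, voom, no filter or 20 counts in 6 libraries, FPKM + 0.1, other designs, a fold bound of 1.5, saline or glycine libraries only, gene classes removed, and each library left out. Settings per list, and those for treatment and interaction, were added after seeing the data.

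Named genes are the 14 largest rises and falls and the 8 smallest p-values among called, separated genes of at least 5 CPM that are neither predicted loci nor variable segments, up to 4 members per list, the 6 smallest interaction p-values, the 3 most and least abundant separated genes, and Glra2, Nos3, Pecam1 and Cdh5. Some genes that the rule names are not reported here. Others (such as Wdfy1's list partners, gene copies and runs) were named after their values were seen. The genes and lists were chosen with earlier results of these data known. Of the entries 21875 were named in the GENCODE vM21 reference and 112 had no symbol. The labels' FPKM and count columns all matched a library.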

Additional observations from a re-analysis of the deposited data

Results flagged for a closer look

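For 11 of the named genes the genotype difference was unequal under saline and glycine by the interaction test of the edgeR fit with 4 groups. The value is the log2 fold change of knockout against WT under glycine minus that under saline. It was larger under glycine in 3 genes: the interferon-induced GTPases Iigp1, at 3.59 ± 0.29 (adjusted p = 2.3e-05), and Tgtp2, at 3.23 ± 0.34 (adjusted p = 0.0005), and the T cell receptor constant region Trbc2, at 2.74 ± 0.51 (adjusted p = 0.02). Iigp1 and Tgtp2 were lower in knockout under saline (-1.69 and -0.74) and higher under glycine (1.89 and 2.48), so the averaged contrast gave 0.10 and 0.87, without a call. In the other 8 it was smaller under glycine. The immunoglobulin A constant region Igha had -6.62 ± 0.44 (adjusted p = 4e-06); properdin, Cfp, had -2.46 ± 0.26 (adjusted p = 0.00054). The myeloid genes Chil3, Ms4a4a, Tmem106a and Cd68 had -3.81 ± 0.50 (adjusted p = 0.002), -2.71 ± 0.33 (adjusted p = 0.0019), -1.87 ± 0.23 (adjusted p = 0.0019) and -1.33 ± 0.23 (adjusted p = 0.013). Ctss had -1.07 ± 0.22 (adjusted p = 0.03) and Apobec1 -1.05 ± 0.22 (adjusted p = 0.036). Of these, Chil3, Ms4a4a, Cd68, Ctss and Apobec1 were separated by genotype. The call of Igha in the averaged contrast was lost without a treatment term (adjusted p = 0.33), and that of Tmem106a in 6 of the 12 fits that left out a library. No group of the labels holds more than 3 libraries, so single libraries were not screened as outliers.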

How the results depend on the processing

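No separated gene changed the sign of its genotype difference in any setting run. The rule all but fixes that sign in fits with fewer libraries or another model, so this does not test the choice of genes. The number called for genotype was 1372; it was 357 with glycine libraries only and 335 with a fold bound of 1.5, and from 976 to 1347 when a library was left out. Replicate numbers did not pair the libraries (correlation of deviations -0.0339 to 0.0194), and with the replicate block 877 genes were called, 548 of the 676 called separated genes and 6 of 17 macrophage markers among them. Under size factors, library totals, DESeq2, voom, both filters, FPKM, the other designs, saline only and the removal of gene classes the count stayed within 1.5 times, at 1102 to 1988. Separated genes numbered 779, with 403 higher and 376 lower. With library totals they numbered 440 (359 shared), 335 higher and 105 lower. With FPKM they numbered 427 (345 shared), 332 higher and 95 lower. Leaving out a library, which loosens the rule, gave 849 to 1033. The count for treatment, 116, was 58 to 117 with a library left out, at its lowest without knockout glycine 5 and 62 without knockout saline 1, and 77 without knockout saline 2 or knockout glycine 4. The interaction count, 156, was 60 to 338. The calls on list members, 145 in all, were 109 to 188 under size factors, DESeq2, voom, FPKM, group means, the block and left-out libraries. With glycine libraries only they moved further in single lists: macrophage from 12 to 1, fibroblast from 13 to 3, matrix falls from 20 to 5 and interferon from 12 to 22. Iigp1 reversed to -1.69 with saline libraries only. Of the 125 named genes 52 lost their call with glycine libraries only, 17 with saline only, 39 with the fold bound and 9 with FPKM. The cause of these changes was not tested, except that a fold bound asks for more. The contrast within a treatment compares the means of 6 libraries, in a fit that takes the spread from all 12. Depth limits genes near 3 counts per library.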

Other observations

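Genes of other processes were described by the same test. Of 24 tested glycolysis genes 7 rose and 1, Eno1, fell, and the median was 0.48. The glucose transporter Slc2a1 had 3.46 to 13.9 CPM (median 9.54) in WT and 13.4 to 32.6 CPM (median 27) in knockout libraries (log2 fold change 1.46 ± 0.27, adjusted p = 0.0028). The glycolytic enzymes Pgk1, Pkm and Gapdh rose by 0.66 ± 0.15 (adjusted p = 0.0087), 0.65 ± 0.16 (adjusted p = 0.019) and 0.77 ± 0.15 (adjusted p = 0.0035); Pgk1 and Pkm were separated. Of 20 genes of the unfolded protein and heat-shock response 4 fell. The chaperone Hsph1 had 87.6 to 189 CPM (median 135) and 41.2 to 72.6 CPM (median 49.2) (log2 fold change -1.35 ± 0.20, adjusted p = 0.00047), and Herpud1, of endoplasmic reticulum degradation, fell, with a log2 fold change of -0.59 ± 0.10 (adjusted p = 0.0015), both without overlap. Hspb1 and Dnajb1 fell, with -0.68 ± 0.19 (adjusted p = 0.035) and -0.48 ± 0.13 (adjusted p = 0.024), calls that were lost in 8 and 5 of the 12 fits that left out a library. Of 17 clock genes 3 fell and 1 rose. Bhlhe41, a repressor of the clock, had 60.2 to 177 CPM (median 95.3) and 8.6 to 40 CPM (median 28.3) (log2 fold change -1.93 ± 0.34, adjusted p = 0.0018), and the core activator Bmal1 and its output Dbp fell, with -0.89 ± 0.19 (adjusted p = 0.008) and -1.99 ± 0.40 (adjusted p = 0.0048). Nfil3, which opposes Dbp, rose by 0.86 ± 0.26 (adjusted p = 0.047), a call lost in 7 of the 12 fits. The labels give no time of tissue collection.

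The remaining lists had few calls each. Over all genes tested 9.85% were called, and no list was tested as a set. Of 24 nuclear respiratory chain genes Uqcrc1 and Atp5f1a rose by 0.42 ± 0.11 (adjusted p = 0.02) and 0.44 ± 0.11 (adjusted p = 0.017). None of 13 mitochondrially encoded, 22 fatty acid, 17 immediate-early, 11 erythroid and platelet, 7 mesothelial and 8 sex-linked genes was called. Of 18 T and NK cell genes Il7r and Trbc2 rose by 1.99 ± 0.47 (adjusted p = 0.012) and 1.57 ± 0.47 (adjusted p = 0.046), the latter call lost in 7 of the 12 fits. Of 7 thymocyte genes Rag1, the recombinase of lymphocyte precursors, rose. Rag1 had 0 counts in every WT library and up to 11.5 CPM in knockout, at least 162-fold higher against 3 counts over the WT group, and 2 knockout saline libraries were also at 0; with FPKM values it was not called (adjusted p = 0.089). Of 20 cell cycle genes Mcm3 rose by 1.25 ± 0.25 (adjusted p = 0.0045). Of 18 adhesion and inflammation genes 3 rose and 1 fell. Il1b, Tnf and the inhibitor Nfkbia, at 0.70 ± 0.18 (adjusted p = 0.019), rose, and Il6 fell. Of 6 cartilage genes Sox9 fell, with a log2 fold change of -2.04 ± 0.41 (adjusted p = 0.0048), and of 6 Schwann cell and neuron genes S100b fell, with a log2 fold change of -1.43 ± 0.43 (adjusted p = 0.044), a call lost in 11 of the 12 fits. Of 10 skeletal and cardiac muscle genes Myl7, an atrial myosin light chain, rose by 1.29 ± 0.37 (adjusted p = 0.035), a call lost in 8 of the 12 fits.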
